A study of Homo sapiens with 12 samples.

Results

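The histone deacetylases are described here in AC16, an established human line that came from the fusion of adult ventricular cardiomyocytes and transformed fibroblasts. The 10 family members HDAC1 to HDAC9 and HDAC11 were matched by symbol to the rows of the deposited count and FPKM tables, which hold 17197 genes, and all 10 were among the 13171 genes that passed the filter on low counts. RNA was sequenced from 12 libraries in 4 groups of 3. The groups were cells given EP300 siRNA and then hydrogen peroxide (siEP300.H2O2), control siRNA and then hydrogen peroxide (siNC.H2O2), EP300 siRNA alone (siEP300) and control siRNA alone (siNC). All cells were transfected with jetPRIME in serum-free medium. H2O2 was added 12 h later and removed after 1 h; the labels give its concentration as 200 mM, and this unit may be an error. RNA was taken after a further 48 h in complete medium. The labels do not say that replicates were separate cultures, so each p-value is set against a spread between samples that could be technical.

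Histone deacetylases remove acetyl groups from lysines of histones and other proteins, the reaction opposite to that of acetyltransferases such as EP300. Class I enzymes (HDAC1, HDAC2, HDAC3 and HDAC8) are mostly nuclear, and HDAC1, HDAC2 and HDAC3 are the catalytic subunits of co-repressor complexes. Class IIa proteins (HDAC4, HDAC5, HDAC7 and HDAC9) have weak catalytic activity of their own, bind MEF2 transcription factors and leave the nucleus when kinases phosphorylate them and 14-3-3 proteins bind. In mouse heart, HDAC5 and HDAC9 are known to restrain hypertrophic growth. HDAC6 (class IIb) acts mainly on cytoplasmic proteins such as tubulin, and HDAC11 (class IV) removes fatty acyl groups.

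Promoter windows from RefSeq (GRCh38.p14; 250 bases before to 50 after an annotated start) are shown for HDAC1 and HDAC9, which rose with EP300 siRNA, and for HDAC11, which fell most. For HDAC9, 2 of its 5 windows are given, which differ in base composition. The upstream window holds 75% GC and the internal window shown 47.3%. The internal windows not shown hold 45.3%, 49.3% and 40% GC. Capitals mark every match on either strand, overlapping matches included, to the GC box GGGCGG, the CCAAT box CCAAT, the AP-1 site TGANTCA and the MEF2 site.
HDAC1, chr1:32291833-32292132, + strand: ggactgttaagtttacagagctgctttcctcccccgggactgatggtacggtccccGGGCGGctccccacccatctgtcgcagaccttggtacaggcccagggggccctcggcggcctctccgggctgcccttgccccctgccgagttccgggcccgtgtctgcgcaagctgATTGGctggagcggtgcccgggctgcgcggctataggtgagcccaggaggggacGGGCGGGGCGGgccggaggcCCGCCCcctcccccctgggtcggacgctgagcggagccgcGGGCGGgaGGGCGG
HDAC9, chr7:18086575-18086874, + strand: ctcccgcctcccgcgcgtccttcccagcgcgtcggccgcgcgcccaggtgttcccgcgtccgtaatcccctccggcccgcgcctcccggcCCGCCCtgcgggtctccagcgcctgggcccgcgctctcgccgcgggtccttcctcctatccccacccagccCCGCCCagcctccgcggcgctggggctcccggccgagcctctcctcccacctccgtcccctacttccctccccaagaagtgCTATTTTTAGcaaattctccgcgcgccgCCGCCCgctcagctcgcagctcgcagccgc
HDAC9, chr7:18495499-18495798, + strand: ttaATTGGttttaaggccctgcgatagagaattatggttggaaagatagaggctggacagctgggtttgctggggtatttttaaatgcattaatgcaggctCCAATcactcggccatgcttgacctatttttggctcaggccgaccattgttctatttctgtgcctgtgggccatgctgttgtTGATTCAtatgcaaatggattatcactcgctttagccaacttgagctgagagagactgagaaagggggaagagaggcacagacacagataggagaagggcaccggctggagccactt
HDAC11, chr3:13480056-13480355, + strand: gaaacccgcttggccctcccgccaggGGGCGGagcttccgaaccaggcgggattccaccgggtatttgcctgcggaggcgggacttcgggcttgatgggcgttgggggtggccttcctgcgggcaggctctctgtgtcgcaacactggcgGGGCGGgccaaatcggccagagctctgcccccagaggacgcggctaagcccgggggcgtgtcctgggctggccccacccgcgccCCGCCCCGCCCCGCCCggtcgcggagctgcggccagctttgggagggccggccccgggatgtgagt

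The HDAC1 window held 6 GC boxes and 1 CCAAT box, and the HDAC11 window held 5 GC boxes. The upstream HDAC9 window held 3 GC boxes and 1 MEF2 match. The internal HDAC9 window shown held 2 CCAAT boxes and 1 AP-1 match, and no GC box. Of the internal windows not shown, that starting at 18495460 overlaps it and held the same matches. That at 18509020 held 2 CCAAT boxes and no AP-1 match, and that at 18496012 held none of these motifs. Of 35116 RefSeq windows of this length, 45% held a GC box, 34.6% a CCAAT box, 7.71% an AP-1 match and 2.99% a MEF2 match. The cyclic AMP element TGACGTCA (1.85% of windows) and the E-box CACGTG (7.26%) were also searched and matched none of the 4 windows shown. Of the 10 members, 9 had windows, 19 in all; HDAC5 had none.

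The siRNA was first checked on its target. EP300, the acetyltransferase named in the siRNA labels, had 36.3, 36.8 and 36.7 CPM (counts scaled to a fixed library size, relative to the TMM-scaled library total) in siEP300 libraries, against 101, 69.1 and 80.1 CPM in siNC libraries. In cells also given H2O2 it had 30.1, 26.9 and 26.5 CPM in siEP300.H2O2 libraries, against 59.9, 80.4 and 89.9 CPM in siNC.H2O2 libraries. The groups did not overlap, and the log2 fold change was -1.19 without and -1.46 with H2O2 (edgeR adjusted p = 3.6e-06 and 5.85e-07). Another label of the siEP300 and siEP300.H2O2 samples names MLF1 as the target. MLF1 fell by 0.22 without and 0.29 with H2O2 on the log2 scale (edgeR adjusted p = 0.00519 and 0.000686). Of all genes tested, 31.4% and 30.6% were lower in these comparisons at an edgeR adjusted p under 0.05. With a trend of fold change with transcript length taken out, MLF1 was at -0.12 without H2O2 (adjusted p = 0.0555).

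Libraries held 16081437 to 19033679 estimated counts. Of 16 cardiomyocyte markers, 14 were in the files and 2 averaged at least 1 FPKM, NPPB at 105.5 and GATA4 at 4.08. The sarcomere genes TNNT2, MYH6 and MYH7 were near 0. All 10 fibroblast markers were present, with summed levels of 2978 to 3150 FPKM in siEP300.H2O2, 3606 to 3693 in siNC.H2O2, 3268 to 3332 in siEP300 and 3045 to 3082 in siNC. Cardiomyocyte markers summed to 92.1 to 111.6, 116.9 to 156, 92.1 to 97.0 and 110.6 to 116 FPKM in the same order. Nearly all of this cardiomyocyte sum was NPPB, whose 105.5 FPKM is the average over the 12 libraries. None of 5 endothelial markers averaged 1 FPKM. Of 4 leukocyte markers 3 were in the files and summed to 48.9 to 56.5, 38.2 to 39.4, 30.4 to 33.8 and 26.2 to 32.4 FPKM in that order. Most of this sum was CD68, which averaged 33.8 FPKM over the 12 libraries, with CD14 at 4.64 and PTPRC at 0.066. The part of these marker sums in the results was not tested. AC16 is an established line, so a marker sum is a transcript level and not a count of cells of that type. In bulk RNA, fewer cells with a transcript and less of it per cell cannot be told apart.

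The first question was which deacetylases changed when EP300 was knocked down. Without H2O2, HDAC1, HDAC2 and HDAC9 rose, HDAC4, HDAC5, HDAC8 and HDAC11 fell, and HDAC3, HDAC6 and HDAC7 did not pass the test. These 7 of 10 calls stand beside 61.5% of all 13171 genes called in that comparison (30.1% higher, 31.4% lower). With H2O2, the same 3 members rose and 6 fell, the 4 above with HDAC6 and HDAC7, beside 59% of all genes (28.4% higher, 30.6% lower). A gene was called at an edgeR quasi-likelihood adjusted p under 0.05. The members' median log2 fold change was -0.07 without and -0.24 with H2O2, against -0.0042 and -0.019 over all genes tested. The share of members called without H2O2 is near the background.

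HDAC1 (chr1:32292086-32333635, GRCh38), a catalytic subunit of the SIN3, NuRD and CoREST complexes, had 257, 273 and 265 CPM in siEP300 libraries, against 140.5, 147 and 139.8 CPM in siNC libraries. After H2O2, HDAC1 had 277, 276 and 286 CPM in siEP300.H2O2 libraries, against 107, 112 and 130.5 CPM in siNC.H2O2 libraries. Every EP300 siRNA library lay above every control siRNA library. HDAC1 rose 1.86-fold without H2O2 (log2 0.89 ± 0.07 SE, edgeR adjusted p = 2.72e-08) and 2.40-fold with it (log2 1.27 ± 0.07 SE, adjusted p = 7.79e-10). Its close paralog HDAC2, which sits in the same complexes, had 245, 241 and 250 CPM in siEP300 libraries, against 214, 222 and 217 CPM in siNC libraries. The groups did not overlap, but the difference was small, with a log2 fold change of 0.17 ± 0.04 without and 0.20 ± 0.04 with H2O2 (edgeR adjusted p = 0.004 and 0.00159). HDAC2 lost its call in both comparisons when a trend of fold change with GC content was taken out, with log2 values of -0.019 (adjusted p = 0.797) and 0.018 (adjusted p = 0.808). Without H2O2 the call was also lost on FPKM (limma adjusted p = 0.178 and 0.19 with pseudocounts of 1 and 0.1). Across 12860 genes, which are not independent replicates, Spearman's correlation between the fold change and the GC content of the transcript was -0.36 without and -0.32 with H2O2, and the HDAC2 transcript holds 38.2% GC.

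HDAC3, the catalytic subunit of the NCoR/SMRT complex, had 105, 104 and 104 CPM in siEP300 libraries, against 91.1, 100.1 and 102 CPM in siNC libraries. After H2O2 these values were 102, 108 and 109 CPM in siEP300.H2O2 libraries, against 108, 92.8 and 96.8 CPM in siNC.H2O2 libraries. It did not pass the test, with a log2 fold change of 0.10 ± 0.06 in both comparisons (edgeR adjusted p = 0.208 and 0.206). A correction for transcript length called it in both, at 0.20 and 0.18 (adjusted p = 0.000591 and 0.00201), as did taking out the GC trend, and leaving out siNC.H2O2 replicate 7 called the second (adjusted p = 0.0354). HDAC8, an X-linked enzyme that deacetylates the cohesin subunit SMC3, had 21.2, 25.3 and 22.7 CPM in siEP300 libraries, against 33.3, 33.1 and 34.8 CPM in siNC libraries. With H2O2 it had 23.9, 25.4 and 23.7 CPM in siEP300.H2O2 libraries, against 34.6, 35.6 and 32.2 CPM in siNC.H2O2 libraries. HDAC8 was the class I member that fell, by 0.55 ± 0.07 without and 0.49 ± 0.07 with H2O2 on the log2 scale (edgeR adjusted p = 1.28e-05 and 4.23e-05).

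**Figure D1:**
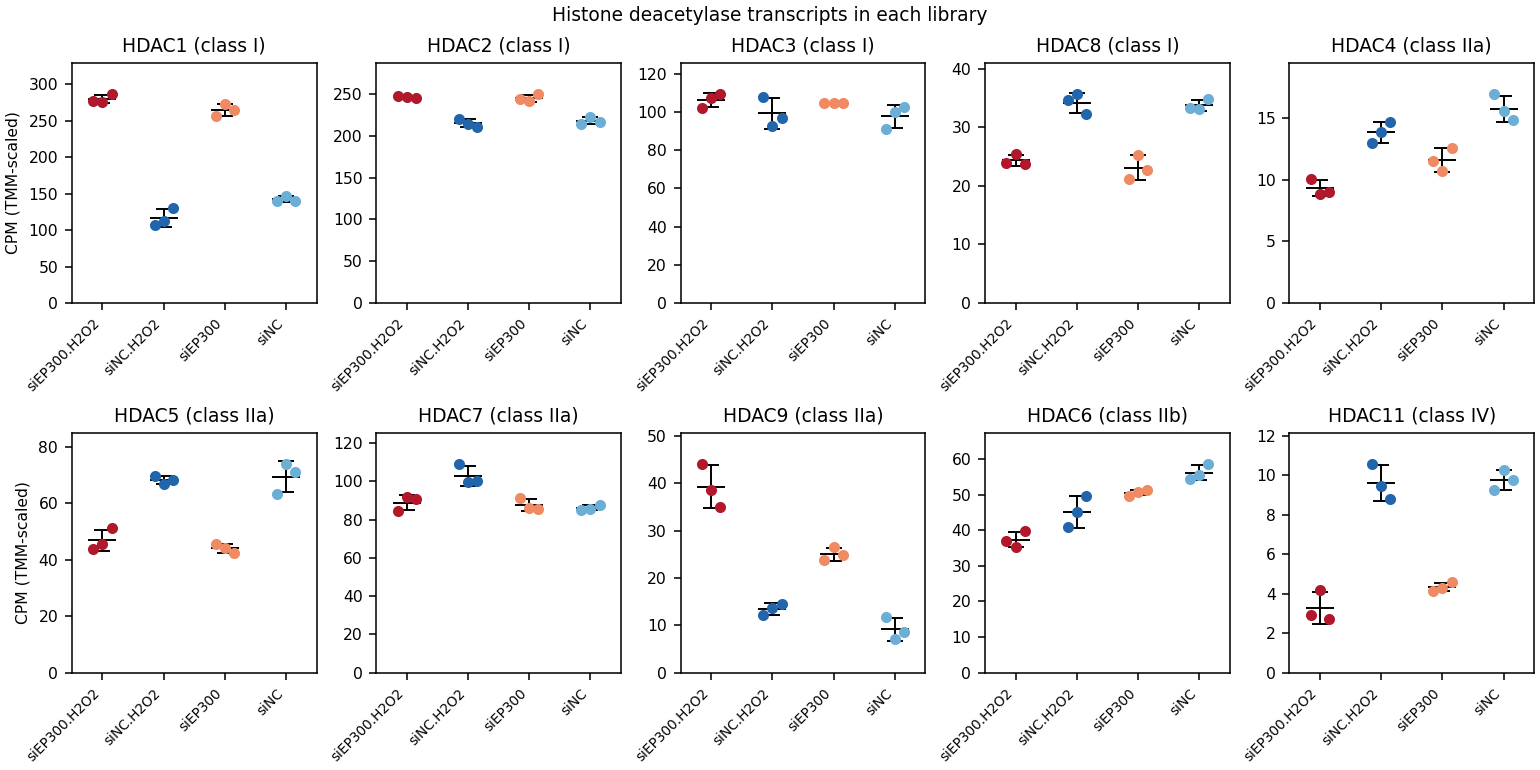
CPM of each of the 10 deacetylases in the 12 libraries. Each gene has a panel with its own axis from 0; points are libraries, black marks are group means with the SD, and the groups run siEP300.H2O2, siNC.H2O2, siEP300, siNC. HDAC1 and HDAC9 sit higher in both EP300 siRNA groups, and HDAC11, HDAC8, HDAC5 and HDAC4 sit lower.

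Among class IIa members, HDAC9 moved opposite to HDAC4 and HDAC5. HDAC9 (chr7:18086949-19002416, GRCh38) had 23.8, 26.5 and 24.9 CPM in siEP300 libraries, against 11.8, 7.03 and 8.53 CPM in siNC libraries. After H2O2, HDAC9 had 44.1, 38.6 and 35.1 CPM in siEP300.H2O2 libraries, against 12.2, 13.6 and 14.6 CPM in siNC.H2O2 libraries. No EP300 siRNA library overlapped its controls, and the rise was the largest of the 10 members, 2.74-fold without H2O2 (log2 1.45 ± 0.14 SE, edgeR adjusted p = 6.05e-07) and 2.92-fold with it (log2 1.55 ± 0.13 SE, adjusted p = 1.66e-07). HDAC5, the signal-responsive class IIa member of heart muscle, had 45.5, 44.1 and 42.4 CPM in siEP300 libraries, against 63.2, 73.9 and 71.2 CPM in siNC libraries. It had 43.9, 45.5 and 51.1 CPM in siEP300.H2O2 libraries, against 69.8, 67.0 and 68.3 CPM in siNC.H2O2 libraries. HDAC5 thus fell in both comparisons without overlap, by 0.66 ± 0.07 and 0.55 ± 0.07 on the log2 scale (edgeR adjusted p = 1.69e-06 and 1.16e-05).

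HDAC4, which is regulated by calcium/calmodulin-dependent kinase II, had 11.5, 10.7 and 12.6 CPM in siEP300 libraries, against 16.9, 15.5 and 14.8 CPM in siNC libraries. After H2O2 the values were 10.04, 8.86 and 8.99 CPM in siEP300.H2O2 libraries, against 12.9, 13.8 and 14.7 CPM in siNC.H2O2 libraries. The groups did not overlap, and HDAC4 fell by 0.44 ± 0.09 and 0.57 ± 0.09 on the log2 scale (edgeR adjusted p = 0.000648 and 0.00011). HDAC7, known for its role in endothelial cells, had 91.1, 86.0 and 85.5 CPM in siEP300 libraries, against 85.2, 85.7 and 87.8 CPM in siNC libraries, and these overlapped (log2 0.02 ± 0.06, edgeR adjusted p = 0.757). With H2O2 it had 84.3, 91.7 and 90.6 CPM in siEP300.H2O2 libraries, against 109, 99.5 and 100.2 CPM in siNC.H2O2 libraries. Those groups did not overlap and HDAC7 fell by 0.21 ± 0.06 on the log2 scale (edgeR adjusted p = 0.00461), but with the GC trend taken out the value was 0.025 (adjusted p = 0.663) there and 0.31 (adjusted p = 3.72e-05) without H2O2. The HDAC7 transcript holds 62.3% GC.

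HDAC6, the tubulin deacetylase, had 49.7, 50.7 and 51.2 CPM in siEP300 libraries, against 54.5, 55.5 and 58.6 CPM in siNC libraries. The groups did not overlap, yet the log2 fold change of -0.15 ± 0.07 did not pass (edgeR adjusted p = 0.0738), although 8 of 22 alternatives called it. Over the 22 alternatives this value ran from -0.21 to 0.02. With H2O2, HDAC6 had 37.0, 35.4 and 39.8 CPM in siEP300.H2O2 libraries, against 40.8, 45.2 and 49.8 CPM in siNC.H2O2 libraries, and it fell by 0.28 ± 0.07 on the log2 scale (adjusted p = 0.00467). With the GC trend taken out that value was -0.13 (adjusted p = 0.165). HDAC11 (chr3:13479724-13506424, GRCh38) had 4.15, 4.31 and 4.58 CPM in siEP300 libraries, against 9.24, 10.3 and 9.75 CPM in siNC libraries. With H2O2 it had 2.93, 4.17 and 2.70 CPM in siEP300.H2O2 libraries, against 10.6, 9.43 and 8.78 CPM in siNC.H2O2 libraries. HDAC11 was the member that fell most, to 44.6% of the siNC level without H2O2 (log2 -1.16 ± 0.13 SE, edgeR adjusted p = 2.81e-06) and to 34.0% of the siNC.H2O2 level with it (log2 -1.56 ± 0.14 SE, adjusted p = 2.63e-07).

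In both comparisons, 9 of the 10 members had libraries that did not overlap between the groups, all but HDAC7 without H2O2 and all but HDAC3 with it. The same held for 68.1% and 61.7% of all genes tested.

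**Figure D2:**
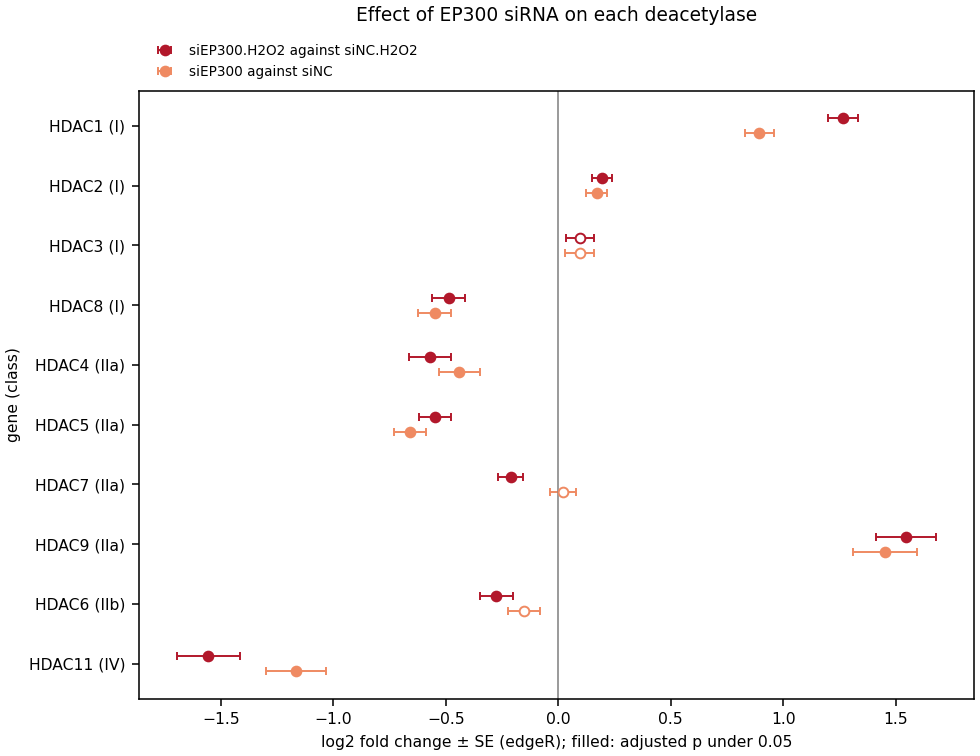
Log2 fold change of each deacetylase with EP300 siRNA against control siRNA, with and without H2O2. Points are edgeR estimates and bars are 1 SE. HDAC9 (1.55 and 1.45) and HDAC1 (1.27 and 0.89) lie furthest to the higher side, and HDAC11 (-1.56 and -1.16) furthest to the lower side.

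The second question was what H2O2 did on its own 48 h later. In control siRNA cells HDAC7 and HDAC9 rose and HDAC1 and HDAC6 fell, 4 of 10 members, beside 35.3% of all genes called (17.8% higher, 17.4% lower). In EP300 siRNA cells HDAC9 rose and HDAC4 and HDAC6 fell, 3 of 10 members, beside 31.1% of all genes (15.9% higher, 15.1% lower). Both shares are near the background. HDAC9 rose 1.47-fold in siNC.H2O2 cells over siNC cells (log2 0.56 ± 0.15 SE, edgeR adjusted p = 0.0102) and 1.57-fold in siEP300.H2O2 cells over siEP300 cells (log2 0.65 ± 0.13 SE, adjusted p = 0.00125). Its call in control siRNA cells rested on siNC replicate 2, the lowest HDAC9 library, without which the value was 0.40 (adjusted p = 0.0512). HDAC6 fell by 0.31 ± 0.07 in siNC.H2O2 cells and by 0.44 ± 0.07 in siEP300.H2O2 cells on the log2 scale (edgeR adjusted p = 0.00344 and 0.000401).

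HDAC1 fell by 0.29 ± 0.07 in siNC.H2O2 cells against siNC cells on the log2 scale (edgeR adjusted p = 0.00318). In siEP300.H2O2 cells its difference from siEP300 cells was 0.08 ± 0.06 (adjusted p = 0.368), although those libraries did not overlap. HDAC7 rose by 0.26 ± 0.06 in siNC.H2O2 cells (adjusted p = 0.00266), with 0.02 ± 0.06 in siEP300.H2O2 cells (adjusted p = 0.795). HDAC4 fell by 0.32 ± 0.10 in siEP300.H2O2 cells (adjusted p = 0.0208), with -0.19 ± 0.09 in siNC.H2O2 cells (adjusted p = 0.116). On FPKM with a pseudocount of 1 the value in siNC.H2O2 cells was called (limma adjusted p = 0.0473). The HDAC4 call in siEP300.H2O2 cells was lost without siEP300 replicate 6 (adjusted p = 0.0972), siEP300.H2O2 replicate 11 (0.0781) or siEP300.H2O2 replicate 12 (0.0709). HDAC11 missed the threshold in siEP300.H2O2 cells, at -0.41 ± 0.16 (adjusted p = 0.0567), and 8 of 22 alternatives called it. HDAC2, HDAC3, HDAC5 and HDAC8 passed in neither H2O2 comparison, with adjusted p from 0.374 to 0.918. On FPKM, HDAC2 was called lower in siNC.H2O2 cells (limma adjusted p = 0.0439 and 0.0489 with pseudocounts of 1 and 0.1). Libraries did not overlap for 5 members in control siRNA cells (HDAC1, HDAC4, HDAC6, HDAC7 and HDAC9) and for 4 in EP300 siRNA cells (HDAC1, HDAC4, HDAC6 and HDAC9), against 41.7% and 49.9% of all genes. The members' median log2 fold change was -0.02 and 0.02, against -0.0081 and -0.00038 over all genes.

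**Figure D3:**
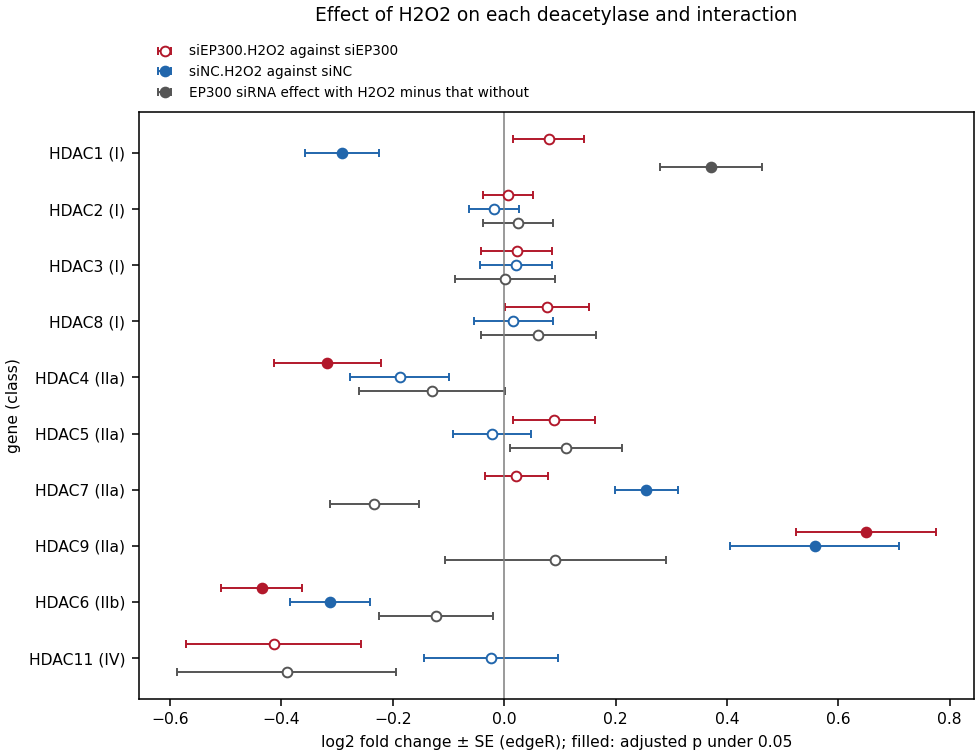
Log2 fold change of each deacetylase with H2O2 against none, in EP300 siRNA cells and in control siRNA cells. Points are edgeR estimates and bars are 1 SE. HDAC9 lies higher (0.65 and 0.56) and HDAC6 lower (-0.44 and -0.31) in both, and HDAC1 lies lower in control siRNA cells (-0.29).

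The interaction, the change in the response to EP300 siRNA when H2O2 was also given, was called for 1 of 10 members, beside 3.33% of all genes (1.12% higher, 2.21% lower). For HDAC1 the EP300 siRNA effect was larger with H2O2 by 0.37 ± 0.09 on the log2 scale (edgeR adjusted p = 0.0412). The call was lost when any of 9 libraries was left out in turn, with adjusted p of 0.0647 to 0.12; these were siNC replicates 2 and 3, all 3 siEP300 and all 3 siEP300.H2O2 libraries, and siNC.H2O2 replicate 8. The value stayed between 0.31 and 0.46 over 21 alternatives. HDAC11 and HDAC7 had interactions of -0.39 ± 0.20 and -0.23 ± 0.08 that did not pass (adjusted p = 0.341 and 0.136). For HDAC9, the interaction was 0.09 ± 0.20 (adjusted p = 0.878), and the other 6 members had adjusted p from 0.627 to 0.997.

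Levels were compared between genes by FPKM, which scales for gene length. In siEP300 cells HDAC1 had the highest level at 145 ± 5.19 FPKM, above HDAC2 at 118 ± 2.33 (SD, n = 3). In siNC cells HDAC2 was highest at 113 ± 2.5 FPKM, above HDAC1 at 81.2 ± 1.88. With H2O2 HDAC1 had 150.0 ± 1.99 FPKM and HDAC2 117 ± 0.992 in siEP300.H2O2 cells, against 62.7 ± 7.13 for HDAC1 and 104 ± 3.34 for HDAC2 in siNC.H2O2 cells. The order of HDAC1 and HDAC2 was thus opposite in EP300 siRNA and control siRNA cells, and their libraries did not overlap in any of the 4 groups. The ratio of HDAC1 to HDAC2 FPKM was 1.23 ± 0.0566 in siEP300 and 0.721 ± 0.0115 in siNC libraries, and with H2O2 it was 1.28 ± 0.0207 in siEP300.H2O2 and 0.604 ± 0.0825 in siNC.H2O2 libraries.

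HDAC3 came next after HDAC1 and HDAC2 in every group, at 64.8 FPKM in siEP300, 62.9 in siNC, 64.2 in siEP300.H2O2 and 60.6 in siNC.H2O2, where its libraries overlapped those of HDAC1. HDAC7 and HDAC8 followed in all groups, with HDAC7 at 23.1, 23.6, 22.9 and 26.7 FPKM and HDAC8 at 15.4, 24.7, 15.5 and 22.8 in the same order; their libraries overlapped in siNC cells. HDAC6 had 13.4, 15.5, 9.67 and 11.8 FPKM, and HDAC5 had 8.72, 14.4, 9.08 and 13.5. These 2 could not be separated in siNC or, together with HDAC9, in siEP300.H2O2 cells. HDAC9 had 5.60 FPKM in siEP300, 1.90 in siNC, 9.33 in siEP300.H2O2 and 2.96 in siNC.H2O2 cells. HDAC4, with 1.39, 1.99, 1.10 and 1.65 FPKM, overlapped HDAC9 in siNC cells and HDAC11 in siEP300.H2O2 cells, and HDAC11 had 1.78, 4.21, 1.32 and 3.94. The ratio of HDAC9 to HDAC4 was 4.04 ± 0.385 in siEP300 and 0.950 ± 0.176 in siNC libraries, and 8.43 ± 0.543 in siEP300.H2O2 and 1.79 ± 0.122 in siNC.H2O2 libraries.

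Summed over the 10 members, deacetylase FPKM was 397 ± 6.10 in siEP300 and 343 ± 7.23 in siNC cells, and 400.2 ± 1.01 in siEP300.H2O2 and 310.5 ± 5.81 in siNC.H2O2 cells (SD, n = 3 each). HDAC1 made up 36.5% ± 0.792 of the sum in siEP300 and 23.7% ± 0.607 in siNC cells, and 37.5% ± 0.414 in siEP300.H2O2 and 20.2% ± 2.16 in siNC.H2O2 cells. Neither the sums nor the HDAC1 shares overlapped between EP300 siRNA and control siRNA libraries. The FPKM carry no TMM scaling, and their total over all genes ran from 587104 in siEP300 replicate 6 to 667621 in siNC.H2O2 replicate 7. The class I share was 86.4% in siEP300 and 82.1% in siNC cells, and 86.6% in siEP300.H2O2 and 80.5% in siNC.H2O2 cells. The class IIa share was 9.77% in siEP300 and 12.2% in siNC cells, and 10.6% in siEP300.H2O2 and 14.4% in siNC.H2O2 cells. A share also falls when another member rises, so it is not a class IIa level. HDAC4, HDAC5 and HDAC9 together had 15.7 FPKM in siEP300, 18.2 in siNC, 19.5 in siEP300.H2O2 and 18.1 in siNC.H2O2 cells. HDAC7 had 23.1, 23.6, 22.9 and 26.7 FPKM in the same order. These sums and shares are descriptions with no test.

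**Figure D4:**
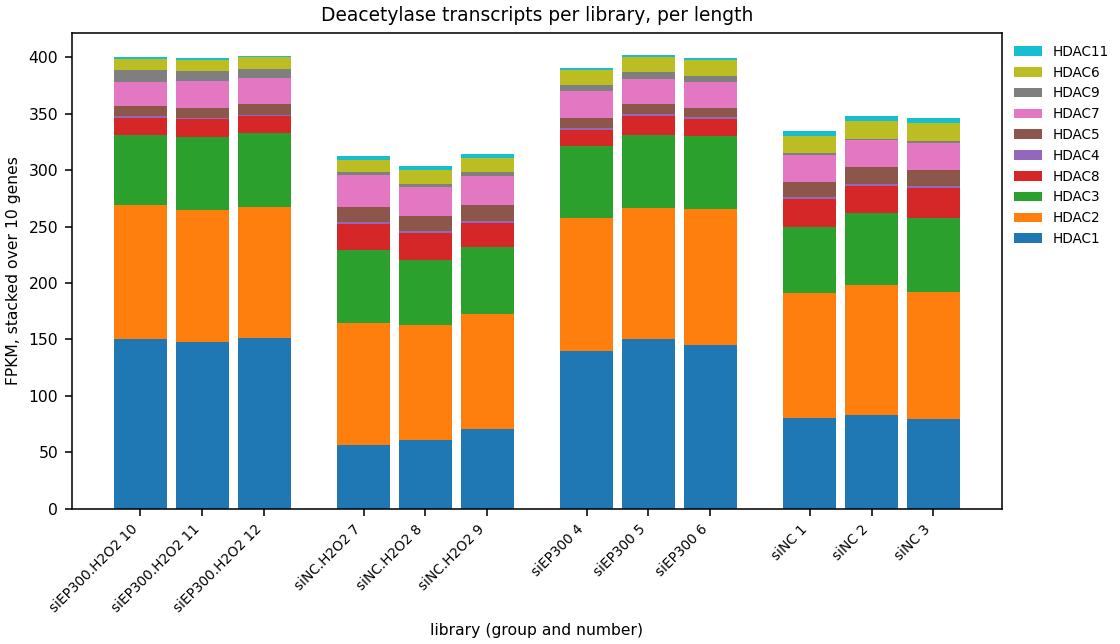
Summed FPKM of the 10 deacetylases in each library, stacked by gene, with groups in the order siEP300.H2O2, siNC.H2O2, siEP300, siNC. The FPKM axis starts at 0. The EP300 siRNA groups average 400.2 and 397 FPKM and their controls 310.5 and 343, and the lowest segment, HDAC1, averages 150.0 and 145 FPKM against 62.7 and 81.2.

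HDAC9 is known to be made from several promoters as isoforms with and without the catalytic domain. GENCODE v29 lists 16 protein-coding HDAC9 transcripts of 545 to 9705 bases, so a count divided by FPKM, which gives the transcript length that the deposited FPKM implies, was compared between groups. The implied HDAC9 length was 4439, 4594 and 4298 bases in siEP300 libraries, against 5107, 4682 and 5121 bases in siNC libraries. With H2O2 it was 4101, 4131 and 4133 bases in siEP300.H2O2 libraries, against 4611, 4288 and 4576 bases in siNC.H2O2 libraries. The groups did not overlap, but neither difference passed the test across genes, with log2 ratios of -0.16 ± 0.04 (limma adjusted p = 0.0969) and -0.12 ± 0.04 (limma adjusted p = 0.313). With each siRNA, the H2O2 libraries also lay below those without H2O2 and did not overlap them, a difference that was not tested. The share of all genes whose implied lengths did not overlap was not counted. Of the 10 members, 0 were called, beside 1.83% of 11452 genes without H2O2 (0.821% longer, 1.01% shorter) and 0.891% with it (0.506% longer, 0.384% shorter), and 1.51% and 1.44% of genes shortened at least as much as HDAC9. HDAC8 moved the other way, with an implied length of 1487 ± 9.65 bases in siEP300 and 1422 ± 37.5 bases in siNC libraries (log2 ratio 0.07 ± 0.02, limma adjusted p = 0.0935). Without siNC replicate 2 both were called, HDAC9 at -0.20 (limma adjusted p = 0.0368) and HDAC8 at 0.09 (limma adjusted p = 0.0161). The table does not separate isoforms, so the share of each was not measured.

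HDAC9 and HDAC11 had the widest spread of group means among the members, 2.12 and 1.57 on the log2 CPM scale. Over the 12 libraries, the non-member genes most like HDAC9 in log2 CPM were FMN1 (Pearson r = 0.996), ZDHHC5 (0.994) and ASCC3 (0.993), out of 10737 candidates. FMN1 encodes an actin-nucleating formin, ZDHHC5 a palmitoyltransferase and ASCC3 a helicase. The genes most like HDAC11 were EHMT2, the histone H3 lysine methyltransferase G9a, CUEDC1 and FAM98B (r = 0.982, 0.982 and 0.981). The libraries of a group share their treatment, so the 12 points are not independent. FMN1 averaged 25.3 CPM in siEP300 and 12.5 in siNC cells, and EHMT2 averaged 73.4 CPM in siEP300 and 103 in siNC cells.

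The partners of the class I enzymes did not move in one direction. Their counts, and those of the class IIa partners, are to be read beside the shares of all genes called, 30.1% higher and 31.4% lower without H2O2, and 28.4% higher and 30.6% lower with it. Of 12 NuRD genes tested, 2 rose and 5 fell with EP300 siRNA without H2O2, with a median log2 fold change of -0.09. With H2O2, 4 rose and 6 fell, with a median of -0.10. MTA2, a scaffold subunit that binds HDAC1, averaged 131 ± 0.580 CPM in siEP300 and 188 ± 6.48 in siNC cells, and fell by 0.53 without and 0.55 with H2O2 on the log2 scale (edgeR adjusted p = 2.85e-07 and 1.76e-07). The chromatin remodeller CHD4 fell by 0.29 and 0.41 (adjusted p = 0.000174 and 6.3e-06), and CDK2AP1 fell by 0.40 and 0.58 (adjusted p = 8.79e-05 and 2.36e-06). The methyl-CpG-binding family member MBD3 fell by 0.59 and 0.28 (adjusted p = 1.75e-05 and 0.00821), but with H2O2 its value was -0.04 (adjusted p = 0.578) once the GC trend was taken out.

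Of 7 CoREST genes, 2 rose and 4 fell without H2O2, with a median of -0.18, and 2 rose and 3 fell with it, with a median of -0.11, beside 61.5% and 59% of all genes called. PHF21A, the subunit that reads unmethylated histone H3, averaged 39.2 ± 0.733 CPM in siEP300 and 24.8 ± 0.509 in siNC cells, a rise of 0.66 on the log2 scale without H2O2 and 0.39 with it (edgeR adjusted p = 8.72e-07 and 2e-04). The HMG-box subunit HMG20B fell by 0.50 and 0.63 (adjusted p = 2.85e-05 and 2.79e-06). Of 15 SIN3 genes, 3 rose and 2 fell without H2O2 (median 0.07), and 4 rose and 3 fell with it (median 0.04). Without H2O2, the rises of SAP30L and ARID4B lost their calls in 10 and 9 of 22 alternatives, and without siNC replicate 2 both calls and that of ING1, a fall, were lost (adjusted p = 0.09, 0.132 and 0.0747). RBBP4 and RBBP7 are counted under both SIN3 and NuRD. SUDS3, a SIN3 scaffold subunit, fell by 0.42 and 0.24 (edgeR adjusted p = 0.000247 and 0.0151), and the second call was lost without siNC.H2O2 replicate 8 (adjusted p = 0.0559), siNC.H2O2 replicate 9 (0.0658) or siEP300.H2O2 replicate 11 (0.0907).

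For the HDAC3 partners, 1 of 5 NCoR/SMRT genes rose and 1 fell without H2O2 (median -0.12), and 1 rose and 3 fell with it (median -0.25). GPS2 averaged 53.7 ± 1.87 CPM in siEP300 and 39.9 ± 3.25 in siNC cells and rose by 0.43 without and 0.65 with H2O2 on the log2 scale (edgeR adjusted p = 0.00125 and 4.34e-05). TBL1XR1 fell by 0.20 without and 0.45 with H2O2 (adjusted p = 0.0278 and 0.000114), the first call being lost without siNC replicate 1, siEP300 replicate 5 or siEP300 replicate 6 (adjusted p = 0.149, 0.0829 and 0.0884). In the MiDAC complex, which holds HDAC1 or HDAC2, 0 of 3 genes rose and 1 fell without H2O2 (median -0.16), and 0 rose and 2 fell with it (median -0.27). DNTTIP1, the fall without H2O2, had -0.16 (edgeR adjusted p = 0.0473) and lost its call in 14 of 22 alternatives. The subunit TRERF1 averaged 34.3 ± 2.22 CPM in siEP300 and 34.2 ± 3.11 in siNC cells, and 31.4 ± 1.30 in siEP300.H2O2 and 46.2 ± 4.50 in siNC.H2O2 cells. TRERF1 fell by 0.56 with H2O2 (edgeR adjusted p = 4.61e-05), with 0.00 without it (adjusted p = 0.978), and its interaction was -0.56 ± 0.12 (adjusted p = 0.0189). That interaction lost its call in 9 of 21 alternatives, with adjusted p up to 0.0739 (limma on FPKM).

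Of the 4 MEF2 genes, whose products bind class IIa deacetylases, 1 rose and 2 fell without H2O2 (median -0.13), and none rose and 2 fell with it (median -0.11). MEF2D averaged 20.5 ± 1.93 CPM in siEP300 and 33.5 ± 1.99 in siNC cells, and 24.5 ± 1.89 in siEP300.H2O2 and 43.5 ± 3.28 in siNC.H2O2 cells. It fell by 0.71 without and 0.83 with H2O2 on the log2 scale (edgeR adjusted p = 5.76e-06 and 9.65e-07), and MEF2A fell by 0.34 and 0.38 (adjusted p = 0.0024 and 0.00108). The rise was MEF2C, at 0.51 CPM in siEP300 and 0.23 in siNC cells, which lost its call in 6 of 20 alternatives. Of 13 kinases that phosphorylate class IIa deacetylases, 3 rose and 3 fell without H2O2 (median 0.02), and 4 rose and 5 fell with it (median -0.06). With H2O2 the rise of PRKD1 lost its call in 5 of 22 alternatives. CAMK2D, the main cardiac calcium/calmodulin-dependent kinase II, averaged 105 ± 6.56 CPM in siEP300 and 64.4 ± 6.26 in siNC cells and rose by 0.70 and 0.50 (edgeR adjusted p = 3.41e-06 and 8.82e-05). The salt-inducible kinase SIK1 fell by 1.00 and 0.90 (adjusted p = 1.2e-05 and 1.05e-05). CAMK1D, at 0.903 CPM in siEP300 and 2.56 in siNC cells, fell by 1.50 and 1.78 (adjusted p = 2.96e-05 and 8.84e-06).

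Of 6 genes of the 14-3-3 family that passed the filter, 3 rose and 0 fell without H2O2 (median 0.13), and 2 rose and 0 fell with it (median 0.08), beside 30.1% and 28.4% of all genes called higher. YWHAG averaged 327 ± 2.22 CPM in siEP300 and 218 ± 17.1 in siNC cells and rose by 0.58 without and 0.52 with H2O2 on the log2 scale (edgeR adjusted p = 4.82e-06 and 1.56e-05). YWHAB and YWHAQ rose by 0.20 and 0.14 without H2O2 (adjusted p = 0.002 and 0.0129), and both calls were lost with the GC trend taken out (adjusted p = 0.263 and 0.578). The medians of these lists stand beside -0.0042 without and -0.019 with H2O2 over all genes.

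The partner genes were also counted in the H2O2 comparisons, where 17.8% of all genes were called higher and 17.4% lower in control siRNA cells, and 15.9% higher and 15.1% lower in EP300 siRNA cells. In control siRNA cells given H2O2, 2 NuRD genes rose and 4 fell, 1 SIN3 gene rose and 4 fell, 2 NCoR/SMRT genes rose and 1 fell, and 0 of 7 CoREST genes were called. In EP300 siRNA cells given H2O2, 3 NuRD genes rose and 1 fell, 0 SIN3 genes rose and 2 fell, 1 NCoR/SMRT gene rose and 0 fell, and 1 CoREST gene rose and 1 fell. For MiDAC 2 genes rose in control siRNA and 0 in EP300 siRNA cells, with 0 falls in either. Of the MEF2 genes 1 rose and 0 fell in each. Of the kinases 2 rose and 2 fell in control siRNA cells, and 1 rose and 3 fell in EP300 siRNA cells. Of the 14-3-3 genes 2 rose and 1 fell in control siRNA cells, and 1 rose and 0 fell in EP300 siRNA cells. MEF2D rose by 0.37 in siNC.H2O2 cells (edgeR adjusted p = 0.00265) and SIK1 by 0.71 (adjusted p = 0.000219) on the log2 scale. In siNC.H2O2 against siNC, the calls of TBL1X, GPS2, MBD3 and SAP30L were lost in 12, 9, 6 and 3 of 22 alternatives. In siEP300.H2O2 against siEP300, those of MEF2D and of PHF21A, the CoREST fall, were lost in 9 and 6. Alternatives were run only for the partner genes that the naming rule picks.

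**Figure D5:**
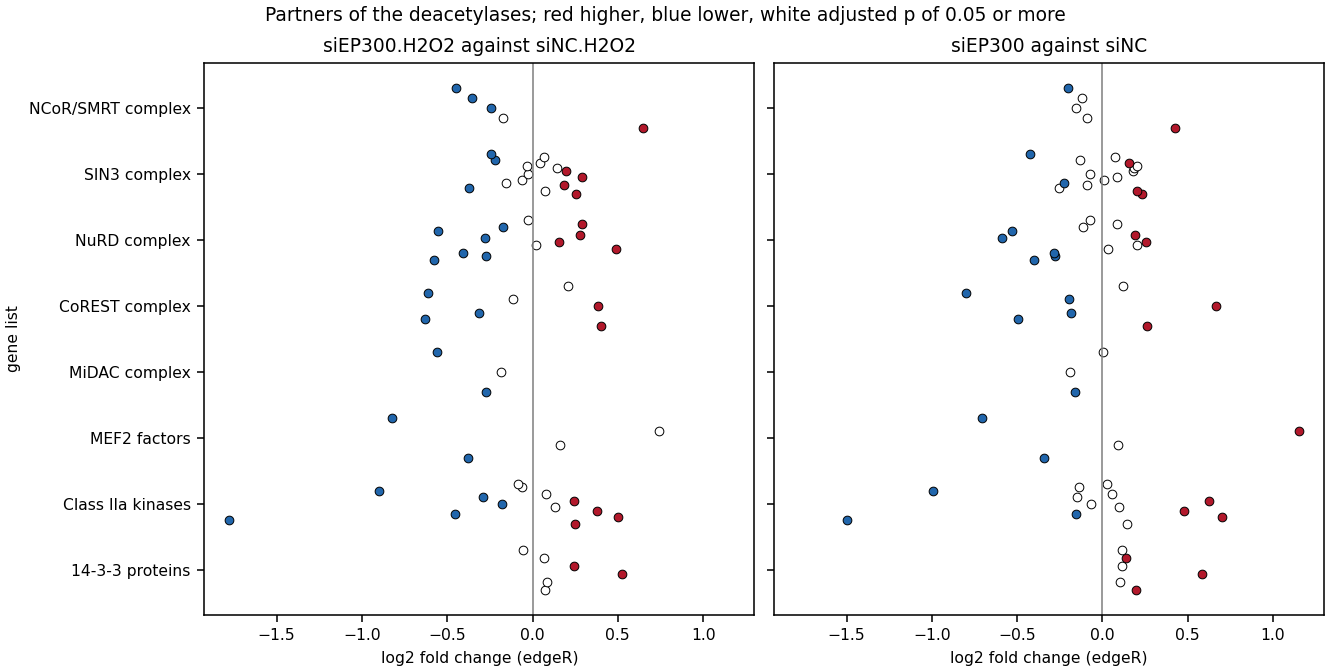
Log2 fold change with EP300 siRNA against control siRNA for the genes of the partner lists, with a row per list and a panel for each comparison. Points are genes, in red for a call higher, blue for a call lower and white for neither. Called genes lie on both sides of 0 in the NCoR/SMRT, SIN3, NuRD, CoREST and kinase rows, while MiDAC holds falls of 0.16 to 0.56 and the 14-3-3 row holds rises of 0.14 to 0.58.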

How the data were processed

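RNA was sequenced from 12 AC16 libraries, 3 in each of 4 groups taken from the sample titles. The GRCh38.p13 build, HISAT and Bowtie2 are named without versions, per the submitters' processing notes. Which program counted reads, with which annotation and strand setting, is not given in the sources used here. The authors deposited estimated counts per gene, not scaled between libraries, of which 12.0% to 13.8% per library were not whole and were rounded before testing. The authors also deposited FPKM, scaled to gene length and library total. Replicate pairs differed by more than sampling noise (chi-square per degree of freedom 1.78 to 18.1, for genes holding 20 counts or more), so each library was counted once.

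The main test was edgeR 4.0.16 under R 4.3.3 (quasi-likelihood test, TMM scaling, filterByExpr, 1 mean per group over all 12 libraries, two-sided, Benjamini-Hochberg over 13171 genes, called under 0.05). Every adjusted p in the text is from this test unless limma, DESeq2 or an alternative setting is named. Values for a length or GC trend taken out or a library left out are from edgeR refitted in that setting, unless limma is named. The biological coefficient of variation was 6.72%. Implied transcript length is the count divided by FPKM, scaled by library, for genes of at least 1 FPKM, tested with limma 3.58.1. Alternatives were RLE size factors, DESeq2 1.42.0, other low-count filters, only the 2 groups compared, transcript length or GC trends as offsets, the main within-group axis as a covariate, log2(FPKM + 1) and log2(FPKM + 0.1) with limma, and each library left out.

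The members and gene lists were chosen with earlier results of these data known. From each list up to 4 genes with the smallest adjusted p in siEP300 against siNC could be named. Motifs, implied length and the GC trend were chosen after the data or sequences were seen. Gene positions are from GENCODE v29 (GRCh38) and promoter windows from RefSeq. A further family member and some partner genes are not reported here. How reads shared by related or overlapping genes were assigned is not stated, so the split between paralogs such as HDAC1 and HDAC2 is uncertain.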

Additional observations from a re-analysis of the deposited data

Results flagged for a closer look

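Among the genes named, 2 had an EP300 siRNA effect that differed between cells with and without H2O2 by a test of the difference itself. In that test 3.33% of all 13171 genes were called (1.12% higher, 2.21% lower). Of the partner genes not named, 1 of 12 NuRD genes was called higher and 1 of 13 class IIa kinases lower. HDAC1 had an interaction of 0.37 on the log2 scale (edgeR adjusted p = 0.0412), with a rise of 1.27 in siEP300.H2O2 against siNC.H2O2 cells and of 0.89 in siEP300 against siNC cells. All 3 libraries of each EP300 siRNA group lay above their controls. TRERF1 had an interaction of -0.56 (edgeR adjusted p = 0.0189), with a fall of 0.56 in siEP300.H2O2 against siNC.H2O2 cells and a value of 0.00 in siEP300 against siNC cells. The HDAC1 and TRERF1 calls were each lost in 9 of 21 alternatives. Groups of 3 are too small for the search for single outlying samples.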

How the results depend on the processing

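Over 22 alternatives (21 for the interaction), HDAC1, HDAC4, HDAC5, HDAC8, HDAC9 and HDAC11 kept their direction and call in both EP300 siRNA comparisons. Without H2O2 the lowest and highest log2 values were 0.83 and 0.99 for HDAC1, 1.20 and 1.68 for HDAC9 and -1.20 and -0.91 for HDAC11. They were -0.63 and -0.32 for HDAC4, -0.74 and -0.39 for HDAC5 and -0.70 and -0.43 for HDAC8. The transcripts of HDAC1, HDAC4, HDAC5, HDAC8, HDAC9 and HDAC11 hold 49.4%, 55.1%, 61.2%, 40.8%, 40.2% and 61% GC. Of 1090 member values under alternatives, 999 kept their sign and their side of the threshold, 27 gained a call and 17 lost one with the same sign. Another 45, called in neither setting, changed sign. Of values that had been called, 2 changed sign and lost the call, both under the GC trend, chosen after seeing the data: HDAC2 at -0.019 in siEP300 against siNC and HDAC7 at 0.025 in siEP300.H2O2 against siNC.H2O2. With the length trend TRERF1 was -0.17 in siEP300 against siNC.

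In siNC.H2O2 against siNC, the 2 members called lower became 4 with log2(FPKM + 1), by the addition of HDAC2 and HDAC4. The 2 called higher ranged from 1 to 2 with each library left out. In siEP300.H2O2 against siEP300, the 2 called lower ranged from 1 to 3. In the interaction, 439 genes were called, 1107 with the length trend, 1729 with the covariate and 196 to 709 with each library left out. Members called there as lower were 1 with the GC trend and 1 with the covariate, HDAC7 each time, and members called higher ranged from 0 to 1. Genes called for implied length ranged from 119 to 218 and from 65 to 118 with each library left out, against 210 and 102. Of the genes called in siNC.H2O2 against siNC, 50.5% were higher, against 33.1% with log2(FPKM + 1); in the interaction these were 33.7% and 58.7%. The cause of these changes was not tested.

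No paired analysis was possible because the replicate numbers 1 to 12 are not shared between groups. In siEP300 against siNC, the SE of the log2 fold change was 0.04 to 0.07 for the 7 members above 20 CPM in every library and 0.09 to 0.14 for HDAC4, HDAC9 and HDAC11, which had fewer counts.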
